A study of Mus musculus with 24 samples.

Results

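Hearts that had carried both a narrowed aorta and benzene vapour were compared with hearts that had carried neither. The 12 libraries compared are the 6 labelled TAC/Benzene and the 6 labelled Sham/Air, chosen by group label alone out of 24 in the series. The other 12, TAC/Air and Sham/Benzene with 6 each, were used to work out what each insult did by itself. All mice were male C57BL/6, and poly-A RNA was taken from the left ventricle with the septum and read as paired ends. Transverse aortic constriction (TAC) is an operation that ties a band around the aortic arch so that the left ventricle pumps against a raised pressure, and sham mice had surgery without the band. After 1 week of recovery the mice breathed either HEPA-filtered air or benzene at 50 ppm, for 6 hours a day on 5 days a week over 6 weeks, so the Sham/Air mice also had an operation and also spent time under exposure conditions. The labels give no age. The labels number the samples but do not name the mouse behind each, so p-values measure the spread between these libraries only.

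Pressure overload thickens the heart muscle, switches cardiomyocytes back to genes of the fetal heart such as the natriuretic peptides and β-myosin, and draws fibroblasts into laying down matrix, while genes for fat burning and calcium cycling fall. Benzene is a volatile solvent that the liver enzyme CYP2E1 oxidises to reactive metabolites, and it is best known for its toxicity to bone marrow and blood cells. If 2 insults act separately on a gene, its change under both, on a log scale, equals the sum of the changes under each. The difference between the observed joint change and that sum is called the departure here, and a departure of 0 on the log2 scale means that the joint change equals the sum. All 3 changes share the Sham/Air libraries, so they are not independent of each other.

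The promoters of 3 genes described below are shown because each holds a short motif of a class of transcription factors that stress and muscle genes use. Each is the 250 bases before the RefSeq transcript start in GRCm38.p6, a later build than the mm9 the submitters' notes name, read on the gene's own strand. Capitals mark matches to the AP-1 site TGANTCA, the CArG box, the MCAT element CATTCC and the TATA motif TATAAA, each searched on both strands, and no 2 of the marked matches overlap.
Sprr1a (chr3:92485882-92486131, minus strand): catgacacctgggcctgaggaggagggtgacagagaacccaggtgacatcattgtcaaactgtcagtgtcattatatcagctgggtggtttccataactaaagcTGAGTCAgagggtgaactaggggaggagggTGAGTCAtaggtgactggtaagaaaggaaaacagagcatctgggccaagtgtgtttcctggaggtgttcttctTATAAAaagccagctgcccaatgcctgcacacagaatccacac
Acta1 (chr8:123894776-123895025, minus strand): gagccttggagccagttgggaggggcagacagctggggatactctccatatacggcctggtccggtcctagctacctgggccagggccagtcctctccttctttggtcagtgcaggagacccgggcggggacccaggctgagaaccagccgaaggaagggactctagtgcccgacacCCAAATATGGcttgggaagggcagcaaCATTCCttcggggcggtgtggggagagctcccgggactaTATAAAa
Sele (chr1:164047984-164048233, plus strand): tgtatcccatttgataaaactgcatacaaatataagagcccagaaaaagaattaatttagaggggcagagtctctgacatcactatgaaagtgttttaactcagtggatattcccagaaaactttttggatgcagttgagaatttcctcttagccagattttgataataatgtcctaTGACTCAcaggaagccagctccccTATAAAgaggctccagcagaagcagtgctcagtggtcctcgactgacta
Sprr1a has a pair of AP-1 matches, 146 and 116 bases before the start, Sele has 1 at 73 bases, and Acta1 has a CArG box at 73 bases and an MCAT element at 46. Among 13732 such windows of 10757 tested genes, 4.61% held the AP-1 letters, against 10.1% of 424 windows of genes at least 2-fold higher in TAC/Benzene and 6.70% of 194 windows of genes at least 2-fold lower. The CArG box was in 1.19%, 1.89% and 1.03% of the same sets, and CATTCC was in 11%, 15.1% and 14.9%. These shares describe letters in a window and no test was run on them.

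Total counts ran from 4170660 to 12718494 in the Sham/Air libraries and from 10016860 to 13724100 in the TAC/Benzene libraries. Sham/Air replicate 1, the shallowest, stood apart from every other library, with rank correlations of 0.852 to 0.913 to the rest, where the others correlated with each other at 0.963 to 0.996, so counts are also given without it. The libraries also split by how a gene's level relative to the mean of all libraries ranked with its GC content. The rank correlation was negative in replicates 1 to 3 of both sham groups (−0.71 to −0.17) and positive in their replicates 4 to 6 (0.29 to 0.52), while in TAC/Air replicates 1 to 3 were positive (0.45 to 0.46) and replicates 4 to 6 negative (−0.47 to −0.13). In TAC/Benzene replicates 4 and 6 were at −0.01 and −0.18 and the other 4 at 0.36 to 0.50. The labels name no batch, and every group has libraries on both sides, so counts are also given with the split as a term and within each side, a check chosen after seeing the data. Genes of cardiomyocyte identity summed to 93055.5 to 117839 CPM (reads of a gene relative to the library's TMM-adjusted total) in Sham/Air and to 69082 to 80243 CPM in TAC/Benzene. The list of lung epithelium genes, 14 names, had 1 member at 0 in all Sham/Air libraries and 6 in all TAC/Benzene libraries.

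The joint change reached a broad set of genes in both directions. Of 13571 genes tested with edgeR's quasi-likelihood test, 1299 (9.57%) were higher and 1250 (9.21%) lower in TAC/Benzene than in Sham/Air at an adjusted p under 0.05. Changes of at least 2-fold were mostly increases, with 442 genes (3.26%) higher and 203 (1.5%) lower, 4.75% together. For 1014 genes (7.47%) every TAC/Benzene library lay above every Sham/Air library, and for 745 (5.49%) every one lay below. Without Sham/Air replicate 1 the counts were 1698 higher and 1596 lower. With the GC split as a term they were 1650 and 1586, within the libraries of positive GC trend 2202 and 2152, and within those of negative trend, which hold 2 TAC/Benzene libraries and Sham/Air replicate 1, 285 and 121. By themselves, TAC in air raised 1195 genes (8.81%) and lowered 998 (7.35%), or 16.2% in all, and benzene in sham mice raised 1 (0.00737%) and lowered 2 (0.0147%), or 0.0221% in all. In TAC hearts, benzene exposure raised 40 genes (0.295%) and lowered 39 (0.287%) against TAC/Air, 0.582% together.

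**Figure D1:**
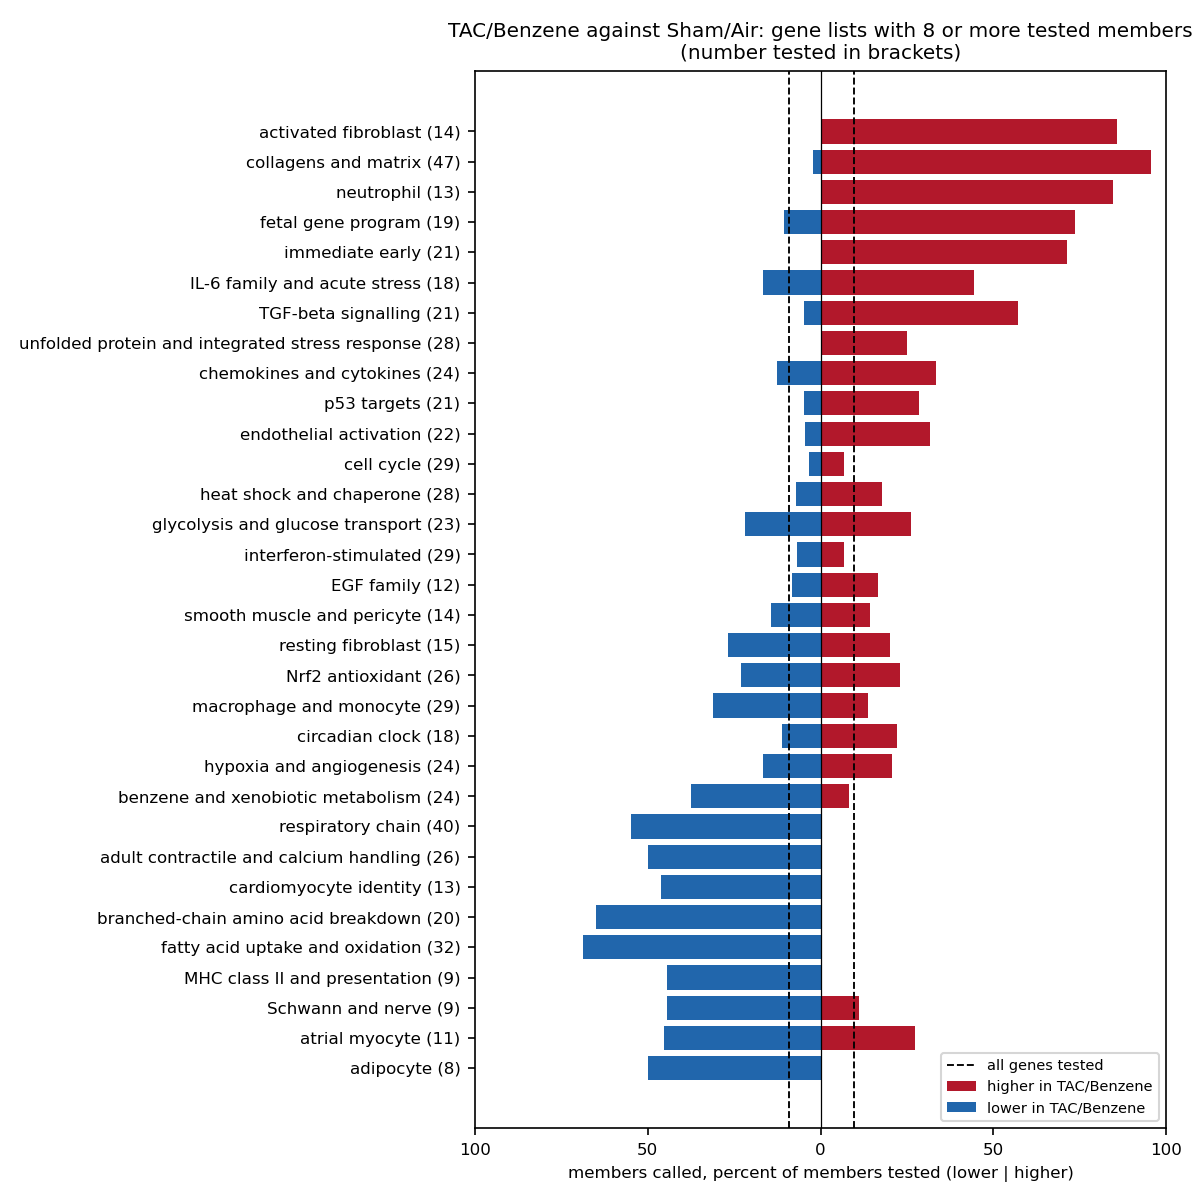
Share of each gene list's tested members called higher (right, red) or lower (left, blue) in TAC/Benzene than in Sham/Air, as percent of members tested with that number in brackets, for lists with at least 8 tested members. Dashed lines mark the shares over all genes tested, 9.57% higher and 9.21% lower. Matrix, activated fibroblast, neutrophil and fetal genes lie far to the right, and fatty acid oxidation, branched-chain amino acid and respiratory chain genes lie to the left. The neutrophil bar includes Mmp8 and Cxcr2, which passed the filter on low counts only through the TAC/Benzene libraries.

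The heart's stress hormones and fetal contractile genes rose. Of 19 fetal-program genes tested, 14 rose and 2 fell, with a median log2 change of 1.14 where the median over all genes was −0.01. Nppa, the gene of atrial natriuretic peptide, was at 155, 272 and 292 CPM (lowest, median, highest) in Sham/Air and at 4015, 4288 and 4780 CPM in TAC/Benzene. The lowest TAC/Benzene library stood more than 10 times above the highest Sham/Air library, and the log2 change was 4.08 ± 0.17 (SE, n = 6 per group; edgeR adjusted p = 9.69e-16). Myh7, the slow β-myosin heavy chain, went from 319, 342 and 424 CPM to 2640, 3524 and 3759 CPM, a log2 change of 3.27 ± 0.12 (edgeR adjusted p = 2.56e-16). Nppb, which encodes B-type natriuretic peptide, went from 123, 302 and 352 CPM to 1265, 1354 and 1458 CPM, with no overlap and a log2 change of 2.26 ± 0.16 (edgeR adjusted p = 5.36e-11). Ccn2, a matricellular growth regulator, rose by 2.66 ± 0.09 from 93.1 to 104 CPM across Sham/Air libraries to 595 to 674 CPM.

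For these genes the sum of the separate changes was almost the whole joint change. The sum for Nppa was 4.0 (TAC alone 3.82, benzene alone 0.18), and its departure was 0.08 with a 95% interval of −0.35 to 0.50. For Myh7 the sum was 3.26 and the departure 0.01 (−0.32 to 0.34), and for Nppb they were 2.07 and 0.18 (−0.26 to 0.63). None of the 3 departures passed the test. Acta1, the skeletal α-actin that the fetal heart also uses, rose further than its sum. It went from 279, 476 and 534 CPM to 4514, 4666 and 5030 CPM, a joint change of 3.37 ± 0.15, where TAC alone gave 2.46 and benzene alone 0.06. Its departure of 0.85 ± 0.19 missed the threshold (edgeR adjusted p = 0.0917) but passed it at 0.95 without Sham/Air replicate 1 (adjusted p = 0.00135), the library with the lowest Acta1 level. It also passed, at 0.82, with the GC split as a term (adjusted p = 0.0499). The skeletal muscle list, kept as a check on other muscle in the samples, summed to 1806 to 3671 CPM in Sham/Air and 6620 to 7235 CPM in TAC/Benzene. Acta1 is itself among its 12 members, with a median of 476 CPM beside a median sum of 3604 in Sham/Air. In TAC/Benzene these were 4666 and 6870 CPM, so the rise in the sum does not show more of other muscle. Of the 4 members that passed the filter on low counts without the Sham/Air libraries, 1 rose and 1 fell.

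**Figure D2:**
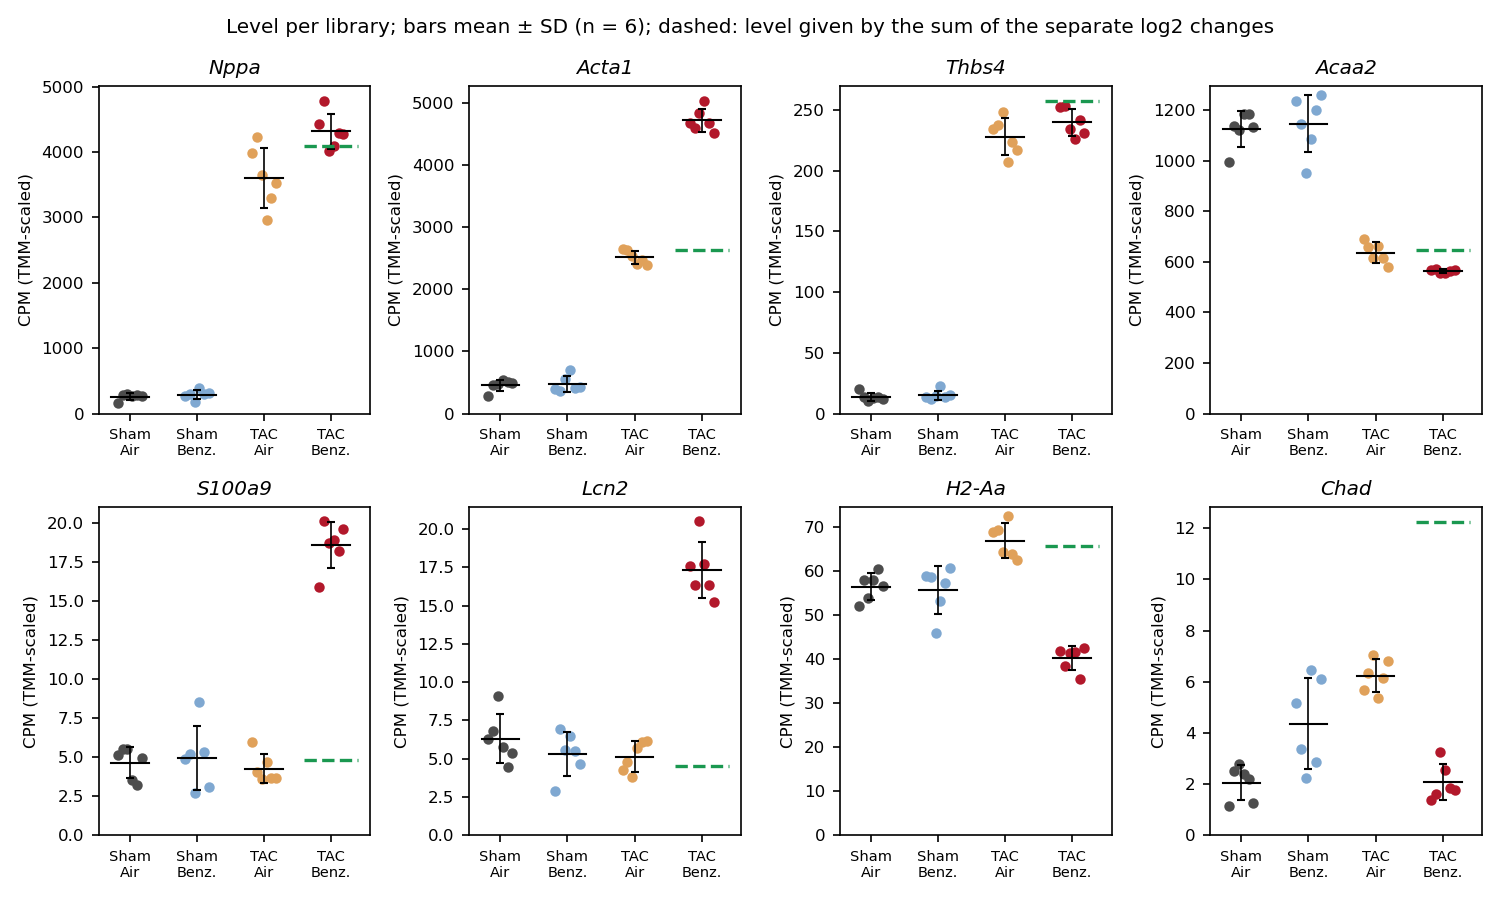
Level of 8 genes in each of the 24 libraries, in TMM-scaled CPM, by group; bars give the mean and SD of 6 libraries, and the dashed green line over TAC/Benzene marks the level that the sum of the separate log2 changes gives. Nppa and Thbs4 lie near the line, Acta1, S100a9 and Lcn2 above it, and H2-Aa and Chad below it.

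Genes of the adult heart muscle fell more modestly. Of 26 genes for adult contraction, calcium handling and repolarisation, 0 rose and 13 fell, with a median log2 change of −0.37. Myh6, the fast α-myosin heavy chain of the adult mouse ventricle, was at 23945, 26796 and 42092 CPM in Sham/Air and at 12194, 16929 and 17976 CPM in TAC/Benzene, a fall of 0.84 ± 0.13 on the log2 scale (edgeR adjusted p = 2.17e-05). The highest value was Sham/Air replicate 1, and without it the change was −0.70. Atp2a2, the calcium pump that refills the sarcoplasmic reticulum, went from 16533, 16906 and 23282 CPM to 11339, 11406 and 11792 CPM, with no overlap and a log2 change of −0.63 ± 0.08. Kcnd2, a channel subunit of the transient outward potassium current, had a log2 change of −1.0 ± 0.11, and its sum was −0.97. The departures of Myh6 (0.25, −0.12 to 0.62) and Atp2a2 (0.15, −0.08 to 0.38) did not pass the test. In whole-tissue RNA, fewer cells of a type and less RNA per cell cannot be told apart.

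Matrix genes rose almost without exception. Of 47 collagens and matrix genes tested, 45 rose and 1 fell, with a median log2 change of 1.66, against a median sum of 1.73. The member that fell was Thbs2, a matricellular thrombospondin, at −0.54, and decorin (Dcn) did not pass at 0.06. Thbs4, a thrombospondin of stressed muscle and tendon, was at 10.4, 13.1 and 19.9 CPM in Sham/Air and at 226, 238 and 253 CPM in TAC/Benzene, a log2 change of 4.15 ± 0.14 (edgeR adjusted p = 4.76e-17) beside a sum of 4.23. Cilp, a secreted cartilage intermediate layer protein made by cardiac fibroblasts, went from 18.5, 28.5 and 34.4 CPM to 400.1, 406 and 421 CPM, a log2 change of 3.85 ± 0.13 beside a sum of 4.21. Ltbp2, which sits in elastic microfibrils, rose from 3.41, 10.3 and 11.9 CPM to 158, 176 and 193 CPM, or by 4.15 ± 0.20 beside a sum of 4.33. The groups did not overlap for any of these 3 genes. Col8a1, a short-chain collagen, rose by 2.34 ± 0.09 beside a sum of 2.16.

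Markers of activated fibroblasts rose with the matrix. Of 14 tested, 12 rose and 0 fell (median 2.24), while Acta2 and Fap, at −0.02 and −0.17, did not pass. Cthrc1, a secreted marker of injury-activated fibroblasts, had 15 counts over all Sham/Air libraries, 2 of them at 0, and reached 6.37, 8.09 and 9.67 CPM in TAC/Benzene. Its log2 change of 4.73 ± 0.31 became 5.37 without Sham/Air replicate 5. Comp, a pentameric cartilage matrix protein, rose from 3.41, 8.99 and 13.1 CPM to 146, 163 and 173 CPM, a log2 change of 4.13 ± 0.24 where the sum was 5.06. That departure of −0.92 ± 0.30 had an adjusted p of 0.56 in edgeR, and passed at −0.89 (adjusted p = 0.00704) when library-specific GC and length trends were removed. Sfrp2, a secreted Wnt modulator, rose by 3.0 ± 0.16 beside a sum of 3.49. Resting fibroblast genes were split, with 3 higher and 4 lower of 15, 1 of the latter (Fgf10) passing the filter on low counts only through the Sham/Air libraries. Mfap4, an elastic fibre protein, rose by 2.61 and Pi16 rose by 1.62, whereas Scara5, a ferritin receptor of quiescent fibroblasts, fell by 1.54 ± 0.08 and the eosinophil-attracting chemokine Ccl11 fell by 3.29 ± 0.31.

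TGF-beta family genes, which drive matrix synthesis, were called higher in 12 of 21 cases and lower in 1. Among ligands, Tgfb2 rose by 1.68 and Tgfb3 by 1.37, while Tgfb1 at 0.46 and the receptor Tgfbr1 at 0.35 did not pass. Gdf15, a stress-induced hormone of the family, was at 0, 1.94 and 2.10 CPM in Sham/Air and at 20.5, 27.4 and 29.4 CPM in TAC/Benzene. Its joint change of 4.02 ± 0.29 and its sum of 4.01 were almost equal, with a wide interval on the departure of −0.99 to 1.01.

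The 5 genes with the firmest match to their sum were Fstl1, Bgn, Srpx2, Ace and Pmepa1, ranked among called genes of at least 2-fold change by how narrowly the departure and its interval lay around 0. Fstl1, a secreted glycoprotein of fibroblasts, rose by 1.63 ± 0.08 from 126, 148 and 163 CPM to 446, 461 and 471 CPM, and its sum was 1.64. Bgn, the matrix proteoglycan biglycan, rose by 1.67 ± 0.08 beside a sum of 1.73. Ace, the enzyme that makes angiotensin II, rose by 1.16 ± 0.11 beside a sum of 1.14. Across the 5, TAC alone gave 1.18 to 1.78 and benzene alone −0.14 to 0.05, so the sum was close to the TAC change alone.

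Across all 2549 genes called in the joint comparison (18.8% of those tested), the median size of the joint change was 0.65 and the median sum in the same direction 0.64. For 1263 of them (49.5%) the 95% interval of the departure lay within 1.5-fold of 0, beside 43.2% of all genes tested. For 2107 (82.7%) it lay within 2-fold, beside 82.2% of all genes tested. In the 442 genes at least 2-fold higher, the median joint change was 1.5 and the median sum 1.54, of which TAC alone gave 1.37 and benzene alone 0.16. Their median departure was −0.06, with quartiles of −0.33 and 0.21. Over all 1250 genes called lower, the median size of the joint change was 0.57 and the median sum in the same direction 0.56. The median departure in that direction was 0.01. Only in the 203 genes at least 2-fold lower, a set cut by the size of the joint change, was the joint change larger than the sum, at a median of −1.32 against −1.09. Taken in the direction of the fall, their median departure was 0.28, with quartiles of −0.003 and 0.61, and it was 0.35 without Sham/Air replicate 1 and 0.23 after GC and length correction. The joint change and the departure both use the TAC/Benzene and Sham/Air libraries, so they are not independent and these medians carry no test. TAC/Benzene enters both with the same sign and Sham/Air with opposite signs, and the net lean from this sharing was not worked out. Only 76 of the 442 (17.2%) and 19 of the 203 (9.36%) had an interval within 1.5-fold, while 11 and 4 had an interval wholly outside it, and for the rest the interval reached across the limit.

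**Figure D3:**
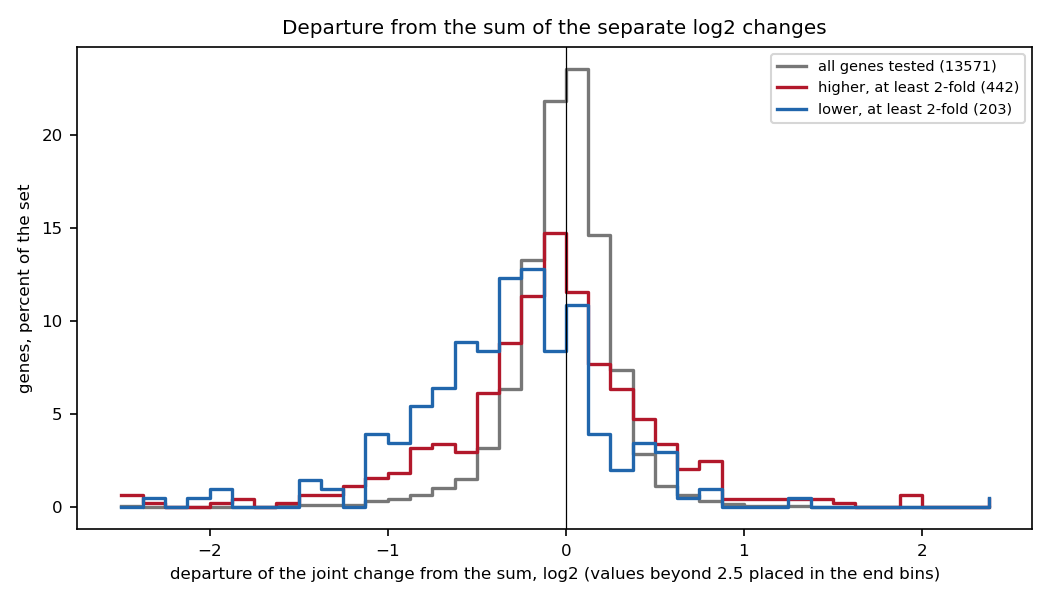
Distribution of the departure of the joint change from the sum, on the log2 scale, as percent of each set, for all 13571 genes tested (grey), the 442 genes at least 2-fold higher (red) and the 203 at least 2-fold lower (blue) in TAC/Benzene. The red curve centres near 0 and the blue curve lies to the left of 0.

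Energy metabolism genes fell to about the sum. Of 32 genes of fatty acid uptake and oxidation, 22 fell and 0 rose, with a median joint change of −0.44 and a median sum of −0.43. Acaa2, the last enzyme of mitochondrial β-oxidation, went from 994, 1136 and 1185 CPM in Sham/Air to 554, 566 and 573 CPM in TAC/Benzene, a log2 change of −1.0 ± 0.07 (edgeR adjusted p = 1.16e-10) beside a sum of −0.80. Acadm, the medium-chain acyl-CoA dehydrogenase, fell by 0.74 ± 0.08 beside a sum of −0.72, and Acot1, an acyl-CoA thioesterase, fell by 1.40 ± 0.15 beside a sum of −1.51. Respiratory chain genes fell in 22 of 40 cases and rose in 0 (median −0.35). Without Sham/Air replicate 1, 29 fell, and the lower calls over all genes also went from 1250 to 1596. Sdha, the catalytic subunit of complex II, fell by 0.65 ± 0.07 beside a sum of −0.67. Branched-chain amino acid breakdown fell in 13 of 20 genes, led by Ppm1k, the phosphatase that activates the pathway's dehydrogenase, at −0.79 ± 0.10. Glycolysis was split, with 6 higher and 5 lower of 23. Departures in these 4 lists were called for 1 gene, Pfkp, the platelet-type phosphofructokinase.

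Pfkp rose past its sum. It was at 58.2, 61.2 and 69.6 CPM in Sham/Air and at 146, 152 and 159 CPM in TAC/Benzene, a joint change of 1.29 ± 0.07 beside a sum of 0.83. The departure of 0.47 ± 0.10 passed at an edgeR adjusted p of 0.0435, which was lost on leaving out any 1 of 20 libraries (adjusted p up to 0.112). Among other glycolysis genes, Ldhb, the lactate dehydrogenase subunit of the heart, fell by 0.56, and Pfkfb1 fell by 1.71, each within 0.29 of its sum.

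Few departures passed the test: 23 genes (0.169%), of which 9 (0.0663%) lay above the sum and 14 (0.103%) below it. Of the 23, 18 were also called in the joint comparison. An unadjusted p under 0.05 was found for 637 genes (4.69%). On data simulated from these libraries, the edgeR test of the departure recovered 13% of 1.5-fold and 59% of 2-fold departures, so departures of 1.5-fold were mostly missed in that simulation. Without Sham/Air replicate 1 the counts were 23 above and 26 below. With the GC split as a term they were 14 above and 18 below, among them all 23. Within the libraries of positive GC trend 146 lay above and 106 below, and 19 of the 23 passed, the others being S100a9, Retnlg, Scara3 and Irf9. Within those of negative trend 0 departures passed in edgeR, where 264 genes (1.95%) had an unadjusted p under 0.05, and no other tool was run. The sign of each of the 23 was the same on both sides. The 23 were called from these same libraries, so the shared sign is no independent test.

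**Figure D4:**
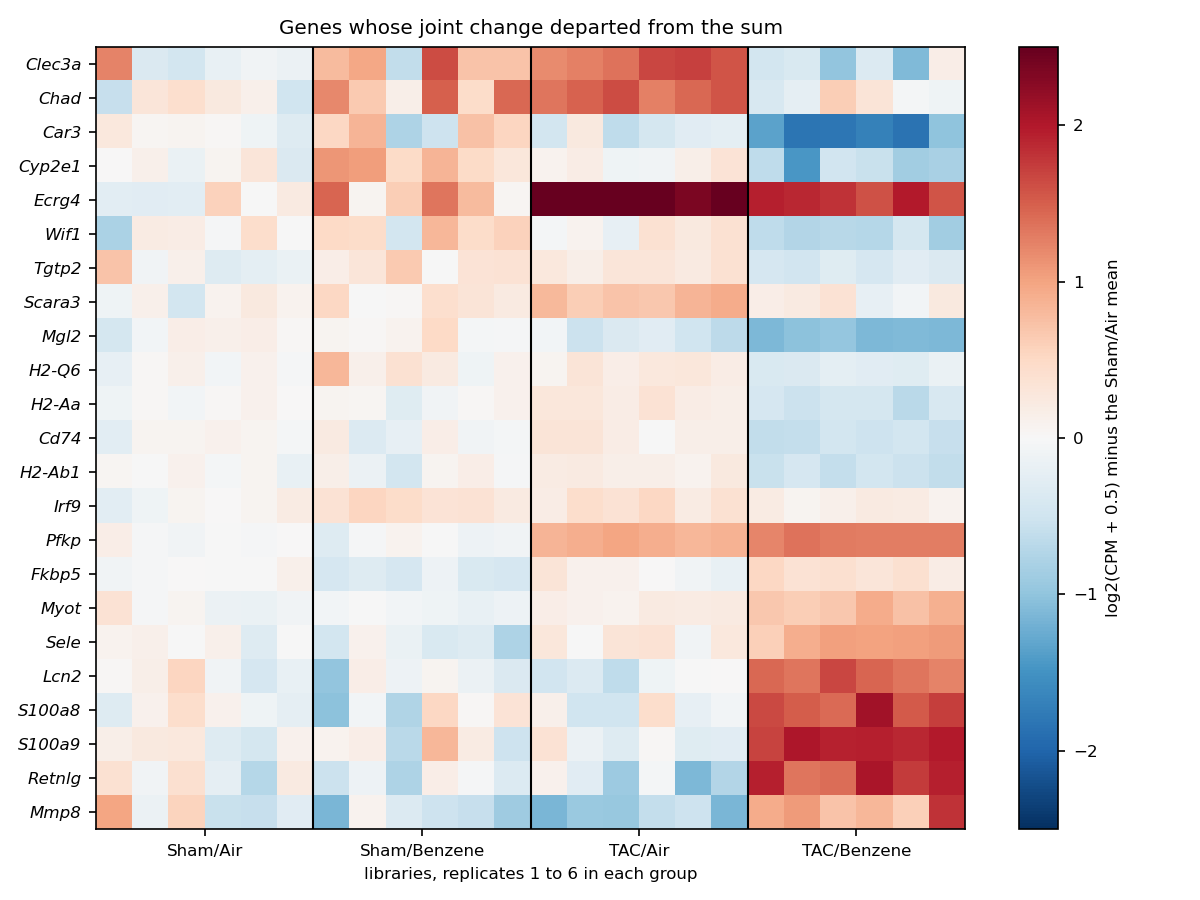
Level of each of the 23 genes whose departure passed the test in all 24 libraries, as log2(CPM + 0.5) minus the Sham/Air mean, ordered by departure from the lowest (top) to the highest (bottom). The neutrophil genes at the bottom are high in the 6 TAC/Benzene libraries, whereas Chad and Clec3a at the top are high in the 6 TAC/Air libraries.

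Genes of neutrophils, the first white blood cells to enter injured tissue, held several of the departures above the sum. Among genes that passed the filter on low counts without the TAC/Benzene libraries, they held 4 of 8. S100a9, a subunit of the calprotectin that fills neutrophil cytoplasm, was at 3.22, 5.04 and 5.53 CPM in Sham/Air and at 15.9, 18.8 and 20.1 CPM in TAC/Benzene. The groups lay far apart, with a joint change of 2.03 ± 0.21 (edgeR adjusted p = 4.64e-08), a sum of 0.05 and a departure of 1.98 ± 0.30 (adjusted p = 0.00173). That departure was 1.38 within the libraries of positive GC trend (adjusted p = 0.069) and 2.62 within those of negative trend (adjusted p = 0.228). Its partner S100a8 went from 2.56, 3.33 and 4.72 CPM to 9.69, 11 and 15.8 CPM, with a departure of 1.98 ± 0.34 (adjusted p = 0.00742). Lcn2, the iron-binding lipocalin of neutrophil granules that stressed heart cells also make, went from 4.43, 6.00 and 9.11 CPM to 15.3, 17.0 and 20.5 CPM, and its joint change of 1.48 ± 0.17 stood against a sum of −0.49 (departure 1.97 ± 0.25, adjusted p = 0.00046). Retnlg, a resistin-like protein of granulocytes, went from 0.40, 1.07 and 1.46 CPM to 3.27, 4.82 and 5.59 CPM, a joint change of 2.25 ± 0.31 against a sum of −0.89, and its departure within the libraries of positive GC trend was 2.19 (adjusted p = 0.0521). The collagenase Mmp8 had 27 counts over all Sham/Air libraries, 19 in Sham/Benzene, 8 in TAC/Air and 126 in TAC/Benzene, and its departure also passed.

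The neutrophil list held 28 names, of which 13 passed the filter on low counts, so its counts say nothing of the other 15. Mmp8 and the chemokine receptor Cxcr2 passed the filter only because of the TAC/Benzene libraries, where they were high, and are left out of the counts here. Of the 11 that passed without those libraries, 9 rose and 0 fell, and the departure was called higher for 4. Csf3r, the receptor of the granulocyte growth factor, rose from 1.42, 2.51 and 3.06 CPM to 6.97, 7.61 and 9.02 CPM, but its departure of 0.70 did not pass (adjusted p = 0.776), and its sum was 0.92. G0s2, a lipase inhibitor on the list that other cells also express, stayed at −0.01. Summed over the list, TAC/Benzene libraries held 113 to 127 CPM, Sham/Air libraries 38.9 to 70.6, TAC/Air libraries 54.7 to 68.0 and Sham/Benzene libraries 82.6 to 135, and 4 members in Sham/Air and 3 in TAC/Benzene were at 0 in every library. In Sham/Benzene S100a9, S100a8, Lcn2 and Retnlg averaged 4.93, 3.18, 5.32 and 0.76 CPM. In Sham/Air they averaged 4.64, 3.38, 6.29 and 1.03 CPM, so the higher Sham/Benzene sum came from other members. The part of blood left in the vessels was not tested. The erythroid and platelet list, 13 names, summed to 17.0 to 36.8 CPM in Sham/Air and 22.3 to 30.3 CPM in TAC/Benzene, and of its 5 tested members 0 rose and 0 fell, while with the GC split as a term the platelet chemokine Pf4 fell (−0.57, edgeR adjusted p = 0.00467).

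Endothelial adhesion molecules, which let neutrophils roll and stick, included 1 gene beyond its sum. Sele, the E-selectin of inflamed vessels whose promoter is printed above, was at 2.02, 2.73 and 2.92 CPM in Sham/Air and at 4.24, 5.82 and 6.03 CPM in TAC/Benzene. The joint change was 1.07 ± 0.16 and the sum −0.13, and the departure of 1.20 ± 0.23 (edgeR adjusted p = 0.0166) was just lost without Sham/Air replicate 4 (adjusted p = 0.052). Selp, the P-selectin of endothelium and platelets, rose by 1.58 ± 0.25 where the sum was 0.02, with a departure of 1.57 ± 0.37 that did not pass (adjusted p = 0.103). In the endothelial activation list 7 genes rose and 1 fell of 22, and pan-endothelial Pecam1 and Cdh5 stood at −0.03 and 0.14 and did not pass.

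Genes of MHC class II, which present antigen to helper T cells, fell under both insults although the sum pointed slightly up. Of 9 tested, 0 rose and 4 fell, with a median of −0.49 beside a median sum of 0.14. H2-Aa was at 52.0, 57.2 and 60.4 CPM in Sham/Air and at 35.3, 41.4 and 42.4 CPM in TAC/Benzene, without overlap. Its joint change was −0.49 ± 0.08 (edgeR adjusted p = 3.26e-05), its sum 0.22 and its departure −0.71 ± 0.11 (adjusted p = 0.00173). H2-Ab1 had a joint change of −0.54 ± 0.09 with a departure of −0.68 ± 0.13 (adjusted p = 0.0152), and Cd74, the invariant chain that escorts class II molecules, had −0.55 ± 0.09 with −0.69 ± 0.13 (adjusted p = 0.0166). With GC and length trends removed, the departures of H2-Ab1 (−0.49, adjusted p = 0.661) and Cd74 (−0.48, adjusted p = 0.521) did not pass. When Sham/Air replicate 1 was also left out, 4 of the 9 departures passed. Over all genes, 97 departures above the sum and 81 below it passed in that fit. The list summed to 290 to 361 CPM in Sham/Air and to 236 to 253 CPM in TAC/Benzene.

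Macrophages also carry class II molecules, and their genes were mixed, with 4 higher and 9 lower of 29 and 0 departures called. Those that fell included markers of resident macrophages, namely Cd163 (−0.81 ± 0.13), Mrc1 (−0.73), Lyve1 (−0.80) and Timd4 (−1.34), while Spp1 (2.20 ± 0.22) and Lgals3 (1.47), which mark macrophages in injured tissue and are also made by other cells, rose. Retnla, a product of alternatively activated macrophages, fell from 2.51, 2.96 and 4.56 CPM to 0.34, 0.51 and 0.71 CPM, a log2 change of −2.63 ± 0.29 where TAC alone gave −1.11 and benzene alone −0.04. Its departure of −1.47 ± 0.39 did not pass (edgeR adjusted p = 0.218). Mgl2, a lectin of the same cells and of dendritic cells, had a departure of −0.81 that passed and was lost without any 1 of 16 libraries (adjusted p up to 0.0817). General macrophage genes such as Adgre1 (0.07) and Csf1r (−0.18) did not pass in the joint comparison.

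Chad and Clec3a, a pair of cartilage matrix genes, showed the opposite pattern: each separate change pointed up and the joint level was near that of the untreated sham hearts. Chad, which encodes chondroadherin, was at 1.14, 2.29 and 2.77 CPM in Sham/Air, 5.38, 6.24 and 7.06 CPM in TAC/Air and 1.36, 1.81 and 3.23 CPM in TAC/Benzene. The TAC/Benzene and Sham/Air libraries overlapped, and the joint change of −0.05 ± 0.28 stood against a sum of 2.59, a departure of −2.64 ± 0.35 (edgeR adjusted p = 0.000594). Clec3a had a joint change of −0.55 ± 0.35 against a sum of 2.54 (departure −3.09 ± 0.45, adjusted p = 0.0013). Ecrg4, a secreted peptide precursor, rose by 2.02 ± 0.26, less than its sum of 3.87, with a departure of −1.85 ± 0.34 (adjusted p = 0.0145). Scara3, a scavenger receptor, had a joint change of 0.10 and a departure of −0.91, and its call was lost without any 1 of 14 libraries (adjusted p up to 0.0725).

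A further group fell under both insults where the sum was above 0. Car3, a carbonic anhydrase abundant in fat cells, went from 3.58, 4.77 and 5.68 CPM to 0.93, 1.02 and 2.04 CPM, a joint change of −1.88 ± 0.30 beside a sum of 0.07 (departure −1.95 ± 0.39, edgeR adjusted p = 0.0266, lost without any 1 of 10 libraries). Cyp2e1, the enzyme that starts benzene oxidation, went from 1.65, 2.34 and 2.90 CPM to 0.51, 1.17 and 1.48 CPM, a joint change of −1.07 ± 0.23 beside a sum of 0.88 (departure −1.95 ± 0.30, adjusted p = 0.00173). Both are also adipocyte markers and are themselves among the 4 of 8 tested genes of the adipocyte list that fell. Adipoq passed the filter on low counts only because of the Sham/Air libraries, and without it 4 of 7 fell. The adipokine Cfd also fell (−1.31), while the fat-cell regulator Pparg stood at −0.07 and did not pass. The adipocyte list summed to 7235 to 18487 CPM in Sham/Air, highest in replicate 1, and to 6172 to 7615 CPM in TAC/Benzene, and its part in the 2 results was not tested. Car3 and Cyp2e1 averaged 4.66 and 2.28 CPM in Sham/Air, so other members carried almost all of the sum, which says little of these 2. Wif1, a secreted Wnt inhibitor, had a joint change of −0.85 and a departure of −1.30 that was lost without any 1 of 18 libraries (adjusted p up to 0.0856). Tgtp2, an interferon-induced GTPase, had a departure of −1.0 (adjusted p = 0.0166).

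Myot and Fkbp5 rose beyond their sums in a narrower range. Myot, a Z-disc protein of striated muscle, went from 81.0, 88.3 and 117 CPM to 140.3, 150.0 and 175 CPM, without overlap, and its joint change of 0.75 ± 0.08 stood against a sum of 0.07 (departure 0.69 ± 0.12, edgeR adjusted p = 0.00742). Fkbp5, a chaperone that glucocorticoids induce, went from 28.7, 30.3 and 33.5 CPM to 34.8, 40.0 and 43.8 CPM, with a joint change of 0.37 ± 0.09, a benzene-alone change of −0.36 and a departure of 0.67 ± 0.12 (adjusted p = 0.0141).

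**Figure D5:**
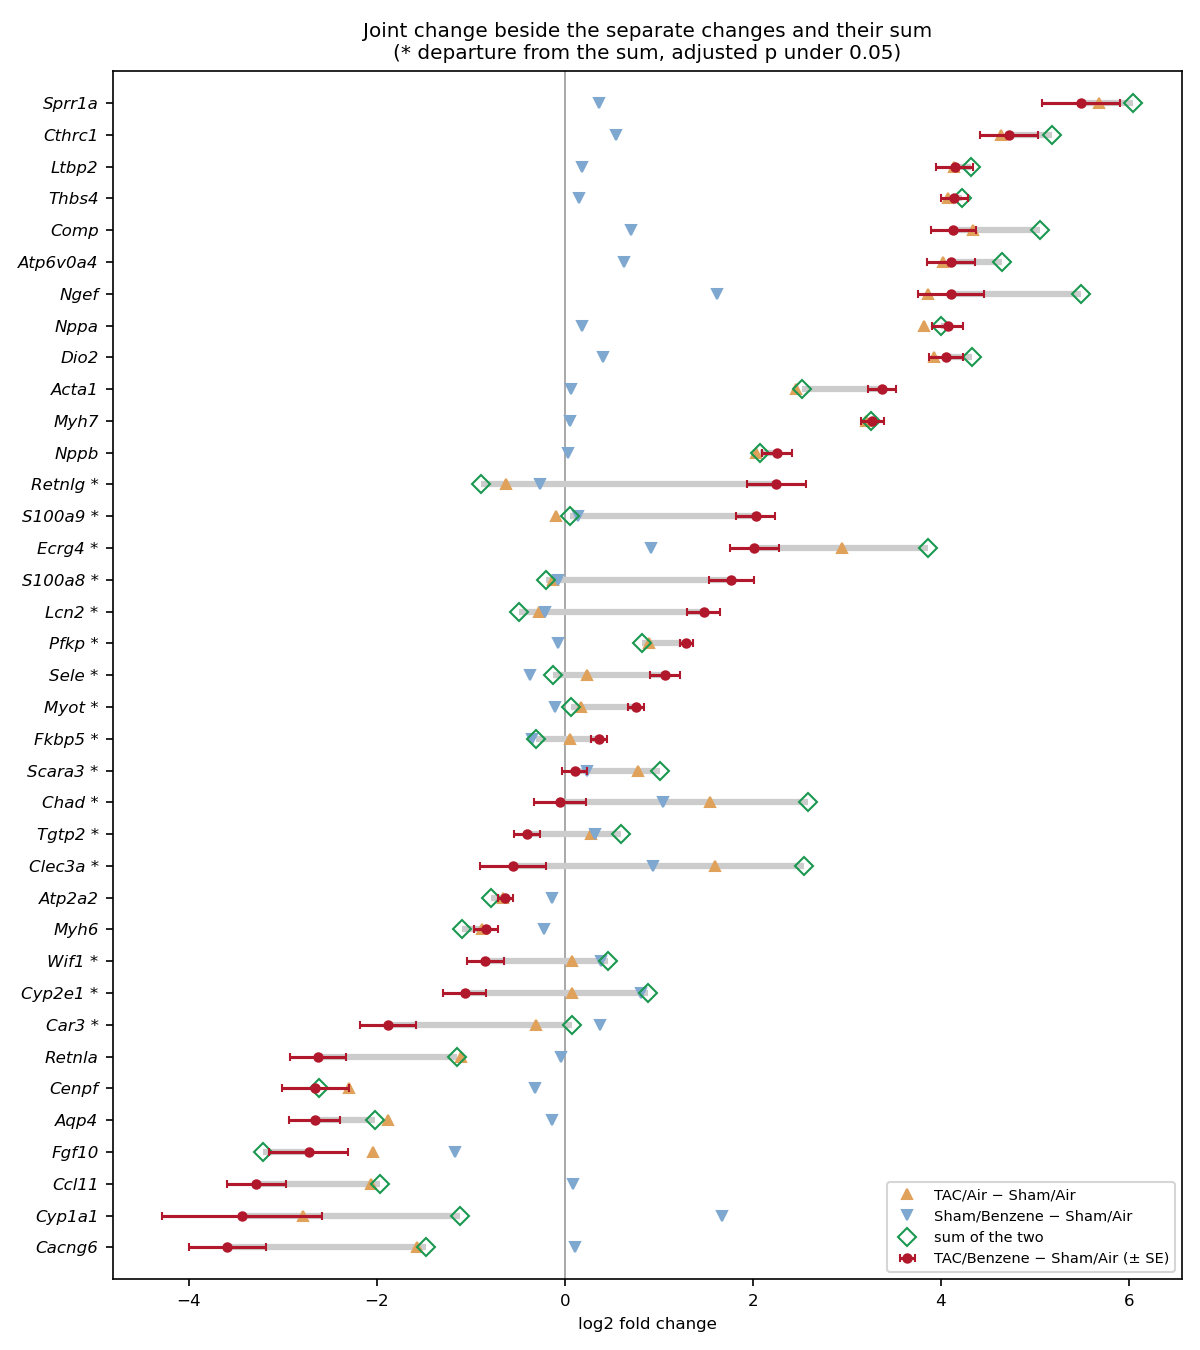
Log2 changes of the named genes: TAC alone (orange triangles), benzene alone (blue triangles), their sum (green diamonds) and the joint change of TAC/Benzene against Sham/Air (red, ± SE), with a star where the departure passed the test. For Nppa, Myh7 and Thbs4 the sum lies on the joint change, while for S100a9, Lcn2, Chad and Car3 the grey bar between them is long.

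Sprr1a, a small proline-rich protein induced in stressed cardiomyocytes, had the highest joint change of called genes averaging at least 1 CPM, unnamed models aside. It had 9 counts over all Sham/Air libraries and reached 6.74, 7.33 and 12.1 CPM in TAC/Benzene, a joint change of 5.49 ± 0.41 beside a sum of 6.05. Dio2, which activates thyroid hormone in tissues, rose from 2.44, 4.39 and 6.82 CPM to 63.6, 68.1 and 75.6 CPM, a log2 change of 4.06 ± 0.18. Il6 itself had 2 counts over all Sham/Air libraries and 78 over TAC/Benzene, a ratio of levels of 28.2 with an exact counting interval of 7.56 to 237. Il6 passed the filter on low counts only because of the TAC/Benzene libraries, and without it the IL-6 and acute stress list had 7 higher and 3 lower of 17, with the acute-phase inhibitor Serpina3n at 2.81 ± 0.14 and the signalling factor Stat3 at 0.59 ± 0.10. None of Sprr1a, Dio2, Il6, Serpina3n or Stat3 had a departure that passed.

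Immediate early genes, whose products include the AP-1 proteins, rose in 15 of 21 cases and fell in 0 (median 0.84, median sum 0.95). Egr2, a zinc-finger factor, rose from 0.55, 0.74 and 1.21 CPM to 7.18, 8.08 and 11.4 CPM, and Fos, an AP-1 subunit, rose from 1.70, 3.42 and 4.81 CPM to 9.21, 10.1 and 11.2 CPM (log2 change 1.47 ± 0.15, edgeR adjusted p = 4.64e-08). Hbegf, an EGF-family growth factor released under mechanical load, rose by 1.66 ± 0.11 beside a sum of 1.24. Of 28 genes of the unfolded protein and integrated stress responses, 7 rose and 0 fell, the risers being Xbp1, Atf4, Atf3, Asns, Gdf15, Nupr1 and Mthfd2, while the endoplasmic reticulum chaperone Hspa5 (−0.10) did not pass. Without Sham/Air replicate 1, 11 of the 28 rose. Heat shock and chaperone genes had 5 higher and 2 lower of 28, 10 higher without that library and 8 higher with the GC split as a term. Over all genes tested, the higher calls also went up in those fits, from 1299 to 1698 and 1650. The small heat shock protein Hspb6 rose from 749.8, 824 and 848 CPM to 1210, 1316 and 1591 CPM, with a joint change of 0.72 ± 0.10 beside a sum of 0.07 and a departure of 0.65 that did not pass (adjusted p = 0.083) except with the GC split as a term (0.64, adjusted p = 0.0434). With GC and length trends removed its joint change, 0.41, did not pass either (adjusted p = 0.0581).

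Genes that respond to foreign chemicals and oxidants did not move as a block. Of 24 genes of benzene and xenobiotic metabolism, 9 fell and 2 rose, the latter being Ephx1 (0.28), an epoxide hydrolase, and Nqo1 (0.29), a quinone reductase. Cyp1a1, the classic target of the aryl hydrocarbon receptor, had 123 counts over the Sham/Air libraries, 482 in Sham/Benzene, 26 in TAC/Air and 15 in TAC/Benzene, a joint change of −3.44 ± 0.85 (edgeR adjusted p = 0.00458) beside a sum of −1.11. Its departure of −2.32 ± 1.26 did not pass. Nrf2 antioxidant genes were even, with 6 higher and 6 lower of 26, among them the extracellular glutathione peroxidase Gpx3 at 1.15 ± 0.08 and mitochondrial Sod2 at −0.45 ± 0.08, a call that was lost with GC and length trends removed (−0.33, edgeR adjusted p = 0.0816). Of 21 p53 targets, 6 rose and 1 fell, led by the cell cycle inhibitor Cdkn1a, which went from 8.81, 18.3 and 21.2 CPM to 43.7, 48.2 and 54.9 CPM (1.45 ± 0.15, sum 1.10). Interferon-stimulated genes had 2 higher and 2 lower of 29, and cell cycle genes 2 higher and 1 lower of 29. With the GC split as a term 4 interferon-stimulated genes were higher, in a fit where the higher calls over all genes also went from 1299 to 1650.

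Of the 14 lung epithelium names, 4 were tested. Scgb1a1 and Sftpc passed the filter only because of the Sham/Air libraries, where they were high, and are left out of the count here. Of the 2 that passed without those libraries, 1 rose and 1 fell. Scgb1a1, the secretoglobin of airway club cells, had 338 counts over the Sham/Air libraries and 2 over TAC/Benzene, a ratio of levels of 233 with an exact counting interval of 64.1 to 1935. It had 49 counts in Sham/Benzene and 10 in TAC/Air, so it was low in every group but Sham/Air. Sftpc, the surfactant protein of alveolar cells, showed 100 counts in Sham/Air, 21 in Sham/Benzene, 4 in TAC/Air and 4 in TAC/Benzene. Hopx, a homeobox gene that heart muscle also expresses, fell by 0.92 ± 0.17. Krt18, a keratin of simple epithelia, went the other way, from 23 counts over the Sham/Air libraries to 213 over TAC/Benzene, a log2 change of 2.74 ± 0.35 beside a sum of 3.97. The part of lung genes in other results was not tested, and the whole lung list summed to 149 to 353 CPM in Sham/Air and 129 to 167 CPM in TAC/Benzene. Cacng6, a calcium channel γ subunit, fell from 1.30, 2.04 and 2.98 CPM to 0.08, 0.09 and 0.34 CPM, a log2 change of −3.60 ± 0.41 beside a sum of −1.47. Aqp4, a water channel, fell by 2.66 ± 0.27 beside a sum of −2.02. The departures of Cacng6 and Aqp4 did not pass. Cenpf, a kinetochore protein, was at 24, 32.2 and 145 CPM in Sham/Air, the highest being replicate 1, and at 6.96, 7.50 and 8.34 CPM in TAC/Benzene. Its log2 change of −2.66 ± 0.36 became −1.99 without that library.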

How the data were processed

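The authors deposited raw read counts per gene symbol for all 24 libraries; FastQC 0.11.9, STAR, DESeq2 and the build mm9 are named per the submitters' processing notes, while for the counting program, the annotation and strandedness the entry is: not given in the sources used here. Overlapping, antisense and near-identical genes can therefore share reads. Of 25229 symbols, 5678 were 0 throughout, and 13571 passed edgeR's filterByExpr (minimum count 10, minimum total 15) and entered the test, leaving out 0.0747% of counts.

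Counts were scaled by TMM and fitted with edgeR 4.0.16 (robust quasi-likelihood, 1 coefficient per group over all 24 libraries, R 4.3.3), with Benjamini-Hochberg adjustment over all genes tested. The joint change is TAC/Benzene minus Sham/Air, the separate changes are TAC/Air and Sham/Benzene minus Sham/Air, and the departure is the joint change minus both; every change is on the log2 scale and ± is its SE. CPM values are TMM-scaled. A gene is called at an adjusted p under 0.05. Total counts of 4170660 to 14632231 per library set the precision; intervals from counts cover counting error only. The procedure was tested on simulated data of 13571 genes (joint change: 47% of 1.5-fold and 93% of 2-fold changes recovered).

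Named genes are the 15 highest and 15 lowest called genes averaging at least 1 CPM, 6 fixed cardiac genes, up to 3 members of each list by p, the 8 highest and 8 lowest departures and the 5 nearest the sum, some dropped from the end of each ranking and 3 not reported here. List members named beyond these, Mmp8 and Mgl2 were chosen after their values were seen. The groups, gene lists and tests were chosen with earlier results of these data known. Alternatives were DESeq2 1.42.0, limma-voom 3.58.1 with sample weights, relative log expression scaling, other filters, only the 12 libraries, a replicate block, GC and length offsets (GENCODE vM21 transcripts, 96.6% of symbols matched, loess span 0.5) and leaving out each library. No batch is named in the labels; a split of the libraries by GC trend was added after seeing the data. No 2 libraries agreed within sampling noise. Same-numbered samples were not paired by the labels.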

Additional observations from a re-analysis of the deposited data

Results flagged for a closer look

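For 23 genes the effect of TAC differed between benzene and air, which is the same contrast as the departure from the sum, tested as an interaction in edgeR. Above the sum were Mmp8 (4.93), Retnlg (3.14), S100a9 (1.98), S100a8 (1.98), Lcn2 (1.97), Sele (1.20), Myot (0.69), Fkbp5 (0.67) and Pfkp (0.47). Below it were Clec3a (−3.09), Chad (−2.64), Car3 (−1.95), Cyp2e1 (−1.95), Ecrg4 (−1.85), Wif1 (−1.30), Tgtp2 (−1.0), Scara3 (−0.91), Mgl2 (−0.81), H2-Q6 (−0.80), H2-Aa (−0.71), Cd74 (−0.69), H2-Ab1 (−0.68) and Irf9 (−0.59), all as log2 differences. The Mmp8 value rests on 8 counts over the TAC/Air libraries and is a fitted value that depends on the prior count.

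Among 51 named genes in 102 group checks, 20 showed 1 library far from the other 5 of its group, where chance gives about 1 in 20. Sham/Air replicate 1 accounted for 17. It was low in Ltbp2 (3.41 CPM), Nppa (155), Nppb (123), Acta1 (279) and Clcn1 (3.69). It was high in Thbs4 (19.9 CPM), Atp6v0a4 (2.27), Serpinb1c (1.14), Ccl11 (19.3), Fgf10 (5.40), Cenpf (145), Myh7 (424), Myh6 (42092), Atp2a2 (23282), Pfkp (69.6), Clec3a (7.96) and Tgtp2 (23). The others were Fgf10 in TAC/Benzene replicate 4 (0.588 CPM, high), Sele in Sham/Air replicate 5 (2.02 CPM, low) and Sele in TAC/Benzene replicate 1 (4.24 CPM, low).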

How the results depend on the processing

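None of 130 called joint changes and 23 called departures turned its direction under the alternatives run. The alternatives reuse the libraries that gave these calls, so a kept direction is no independent test. Of 117 departures that did not pass, 50 changed sign under at least 1 alternative, Fstl1 among them (0.03 without Sham/Air replicate 1), and 0 passed after the turn. The joint counts, 1299 higher and 1250 lower, became 2281 and 2139 with limma-voom and sample weights. GC and length offsets gave 2223 lower, 2053 with the replicate block as well, and 1984 higher and 2504 lower without Sham/Air replicate 1. Alternatives added after seeing the data, the fits by GC trend, gave 2202 higher and 2152 lower within the libraries of positive trend and 285 and 121 within those of negative trend. Leaving out 1 library gave 1144 to 1698 higher and 1046 to 1596 lower. The departure counts, 9 above and 14 below, became 28 and 29 with DESeq2, 49 and 42 with limma-voom, 27 and 30 with GC and length offsets, 97 and 81 when Sham/Air replicate 1 was also left out, and 14 above with the offsets and the replicate block. With the GC split as a term 14 lay above, within the libraries of positive trend 146 above and 106 below, and within those of negative trend 0 and 0 (264 genes at an unadjusted p under 0.05 in edgeR). Leaving out 1 library gave 7 to 23 above and 8 to 26 below, the highest of both without Sham/Air replicate 1; fewer than 10 lay below without Sham/Air replicate 2, 4 or 6 or TAC/Benzene replicate 1, 2, 3, 4 or 5. Fewer libraries or other weights change the error; other causes were not tested. The replicate block gave 7 departures below the sum. Deviations from the group mean correlated at −0.53 to 0.47 in same-numbered libraries (36 pairs) and at −0.55 to 0.50 in the others (180 pairs). These ranges, pooled over all pairs of groups, do not settle whether equal numbers share a batch. Replicates 1 to 3 and 4 to 6 do differ in GC trend, in opposite directions in the sham and TAC/Air groups. Under the block 9 of the 23 called departures were lost, namely H2-Ab1, Cd74, H2-Q6, Pfkp, Scara3, Mgl2, Irf9, Sele and Wif1; the first 5 were also lost under GC and length offsets, and Pfkp, Scara3, Mgl2 and Irf9 without a filter. H2-Q6, Irf9 and Mgl2 were lost on leaving out 1 of 12, 16 and 16 libraries. The Sod2 joint call was lost under GC and length offsets (adjusted p = 0.0816), and with the block as well (0.134). Among joint calls, Tgtp2, Gbp3, Ckm and Cd28 were lost on leaving out 1 of 7, 8, 7 and 2 libraries. Low counts limit Sprr1a, Ngef, Il6, Sftpc, Mmp8 and Cyp1a1; without TAC/Benzene replicate 1 the Sftpc change, −4.81, was −5.40.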
